A study of Mus musculus with 13 samples.

Results

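Solute carriers were represented by 186 gene symbols out of 24421 in a count table from mouse liver endothelial cells. A symbol was taken when it began with Slc and a digit and its mean over all 13 libraries was at least 5 CPM (counts-per-million of the library total). The carriers Slc10a1, Slc10a6, Slc40a1, Slc39a14 and Slc11a2 were left out by name. Of 373 symbols with such a name, 182 lay under the limit, 24 of them without a count in any library. Abundance over all libraries and the name chose the members, and the difference between the groups did not. Of the 186, 181 encode transporters. The other 5 carry a transporter's name only: Slc9a3r1 and Slc9a3r2 encode scaffold proteins, Slc2a4rg-ps is a pseudogene, Slc4a1ap encodes an adaptor protein, and Slc7a6os is named for its place opposite Slc7a6.

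Solute carriers are membrane proteins that move nutrients, ions, metals, nucleosides and metabolites by facilitated diffusion, by exchange, or coupled to a sodium or proton gradient. They are grouped into numbered families by sequence, and members of a family often, but not always, carry similar substrates. Some sit in the plasma membrane, and others in the mitochondrial inner membrane, the lysosome, the Golgi or secretory vesicles. Endothelial cells of the liver sinusoid lie between portal blood and hepatocytes, so their carriers face amino acids, sugars, vitamins and nucleosides that arrive from the gut.

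The libraries came from wild type mice that were conventionally raised (CONV-R, 7 libraries, numbered 1 to 7) or germ-free (GF, 6 libraries, numbered 8 to 13), and the comparison asks how the transcriptome differs without a microbiota. Germ-free mice live without microbes from birth. The labels give no age, sex, isolation method, batch or treatment, and leave unsaid whether a library stands for 1 animal. The p-values therefore describe how these libraries vary, which may be technical. Library names carry a code number (10 for CONV-R 1 to 4, 9 for CONV-R 5 to 7, 6 for all GF) of unknown meaning, and as the numbers differ between CONV-R and GF, the code and the group cannot be told apart. The depth was 7590320 to 32869515 counts for CONV-R libraries and 23407168 to 35478115 for GF libraries. The 12 sinusoidal endothelial markers, which include the junction protein Pecam1 and the scavenger receptor Stab2, were detected in every library. Their sum was 31450 ± 5083 CPM (SD, n = 7) in CONV-R and 36772 ± 756 (n = 6) in GF, with the lowest value, 21090, in CONV-R 1.

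Close to the limit, Slc7a6 (5.51 CPM over all libraries) and Slc2a6 (5.69) were just inside, and Slc6a13 (4.99) and Slc25a14 (4.84) just outside. Slc6a13, a taurine and GABA carrier, averaged 8.29 CPM in CONV-R and 1.15 in GF. Because the limit acts on the mean of all libraries, 8 members had 1 group under 5 CPM. Slc16a3, Slc52a2, Slc2a6, Slc1a2, Slc27a5 and Slc7a6 were among those that passed through CONV-R, and Slc4a8 passed through GF. Another 7 symbols with 1 group mean at or above 5 CPM stayed under the limit. All 186 members passed the filter on low counts and were tested among 13915 genes.

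For 143 of the 186 members RefSeq gave the sequence around 1 or more listed starts, 250 bases before to 50 after each. With 76.9% covered, no comparison of promoter features between members that rose and fell was made. The windows of Slc20a1, Slc37a1 and Slc9a3r2 are shown because these were the members whose difference between the groups kept its call in every alternative fit. All are given 5′ to 3′ on the gene's strand in build GRCm38.p6: Slc20a1 at chr2:129198523-129198822 (plus strand), Slc37a1 at chr17:31295974-31296273 (plus strand) and Slc9a3r2 at chr17:24650256-24650555 (minus strand). The window of Slc37a1 lies around a listed start inside the gene, downstream of its first base. Slc20a1 and Slc9a3r2 each have 2 listed windows, of which the first is shown. Capitals mark matches, on either strand, to the motifs searched.
Slc20a1: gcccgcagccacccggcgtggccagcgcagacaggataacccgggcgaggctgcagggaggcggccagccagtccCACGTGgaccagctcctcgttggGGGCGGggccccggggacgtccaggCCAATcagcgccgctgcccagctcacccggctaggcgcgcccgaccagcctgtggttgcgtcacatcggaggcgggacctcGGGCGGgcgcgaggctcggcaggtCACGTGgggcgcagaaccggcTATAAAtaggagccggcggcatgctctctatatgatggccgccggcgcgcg
Slc37a1: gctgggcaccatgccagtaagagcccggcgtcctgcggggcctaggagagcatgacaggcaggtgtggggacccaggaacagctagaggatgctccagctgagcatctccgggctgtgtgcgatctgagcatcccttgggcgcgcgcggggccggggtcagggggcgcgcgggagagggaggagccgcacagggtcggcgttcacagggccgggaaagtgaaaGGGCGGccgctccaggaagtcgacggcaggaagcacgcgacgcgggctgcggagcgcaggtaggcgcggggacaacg
Slc9a3r2: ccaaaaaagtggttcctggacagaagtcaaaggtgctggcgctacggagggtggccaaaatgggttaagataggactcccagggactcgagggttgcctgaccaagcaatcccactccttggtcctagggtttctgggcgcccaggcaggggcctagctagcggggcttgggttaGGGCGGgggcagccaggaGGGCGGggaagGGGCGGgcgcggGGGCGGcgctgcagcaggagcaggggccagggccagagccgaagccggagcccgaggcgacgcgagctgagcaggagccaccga
The motifs were the TATA box TATAAA, the GC box GGGCGG, the CCAAT box CCAAT, the E-box CACGTG, the ETS site CCGGAAGT and the ATF4 composite site TGATGNAA, where N is any base. Of 27025 first-listed promoter windows of all genes, 14.2% held the TATA box, 35.9% the GC box, 37.9% the CCAAT box, 7.24% the E-box, 4.00% the ETS site and 4.06% the ATF4 composite site. The Slc20a1 window held 2 GC boxes, 1 CCAAT box, 2 E-boxes, at positions -175 and -22 from the listed start, and 1 TATA match that began at -1. In the window of Slc9a3r2 there were 4 GC boxes, between -75 and -34, and in that of Slc37a1 a single GC box at -27. No match to the ETS or ATF4 composite letters was found in these 3 windows. The second window of Slc20a1 held 1 GC box, on the minus strand, and that of Slc9a3r2 held no match.

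Per kilobase of exon, carriers of nucleobases and nucleosides were the most abundant members. Slc43a3, a purine nucleobase transporter, stood first with 246.9 ± 50.4 CPM per kilobase of exon (SD, n = 7) in CONV-R and 389.9 ± 23.5 (n = 6) in GF. Slc29a1, the equilibrative nucleoside transporter that takes up adenosine, came second with 204.4 ± 20.04 and 257.8 ± 14.98. Next was Slc9a3r2, a scaffold with PDZ domains that binds ion exchangers and receptors, at 110 ± 11.9 and 174 ± 11.6. Slc25a5, the mitochondrial ADP/ATP exchanger, followed with 109 and 111 CPM per kilobase, and in CONV-R it did not differ from Slc9a3r2 beyond their spread. Slc26a10, the zinc carriers Slc39a1 and Slc39a7, the heavy chain Slc3a2, the copper carrier Slc31a2 and Slc25a37 followed, and 9 of the 10 most abundant members were the same in each group. Slc26a10 shares 17.8% of its exon length with B4galnt1 on the opposite strand, and whether the counting used strand is not given in the sources used here.

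**Figure D1:**
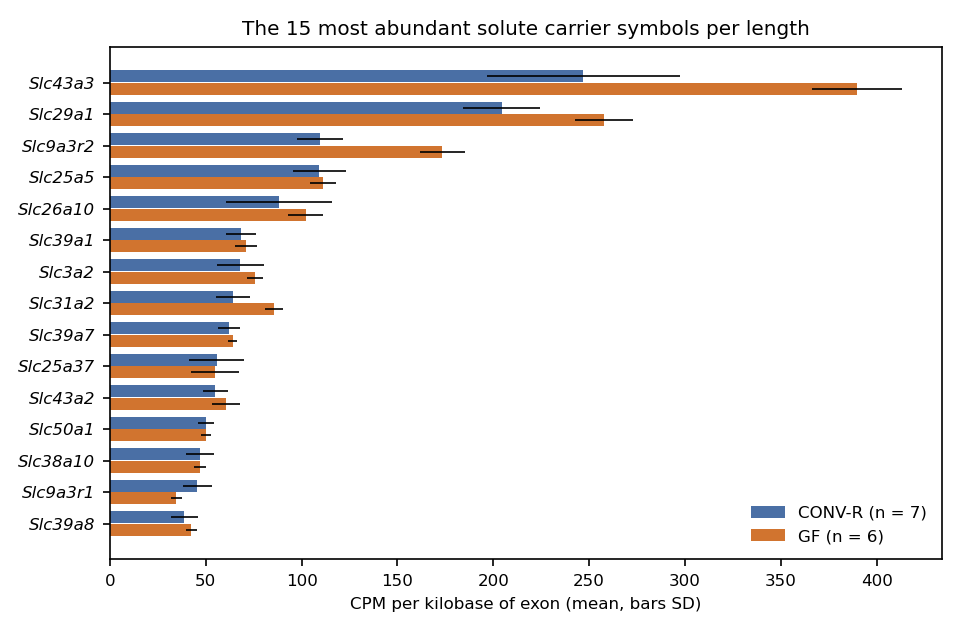
Mean level in CPM per kilobase of exon (horizontal axis, error bars SD) of the 15 members most abundant per length in CONV-R, for CONV-R (blue, n = 7) and GF (orange, n = 6). Slc43a3 and Slc29a1 stand above the other members in each group, and Slc43a3 reaches 246.9 in CONV-R and 389.9 in GF.

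Between the groups, 27 members were higher in GF, 35 were lower and 124 passed in neither direction (edgeR quasi-likelihood test with Benjamini-Hochberg adjustment over 13915 genes, threshold 0.05). This was 33.3% of the members, against 24.1% of all tested genes. The share higher was 14.5%, against 11.4% of all tested genes, and the share lower was 18.8%, against 12.7%. Among genes at or above 5 CPM the background was 25.2% called, 13.0% higher and 12.3% lower, with 7.14% without overlap above and 4.26% below, and 0.948% and 4.61% past 2-fold up and down. The median log2 fold change was 0.01 for the members and -0.01 for all tested genes, and 115 members lay within 0.3 of 0. In 17 members every GF library lay above every CONV-R library (9.14%, against 5.94% of all tested genes), and in 10 every GF library lay below (5.38%, against 4.32%). Of the 186 members, 2 were called at least 2-fold higher, against 234 of 13915 tested genes (1.68%). At least 2-fold lower were 12 members, against 809 tested genes (5.81%).

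The balance of directions depended on the scaling. Scaled to library totals in place of TMM, the median of all genes moved from -0.01 to -0.11 and 16 members were higher and 46 lower, so that 25.8% of called members were higher in place of 43.5%. Over all called genes the share higher moved likewise, from 47.5% to 25.9%. Members at or above 5 CPM in each group, 178 in all, gave 26 higher (14.6%) and 29 lower (16.3%). Of these, 2 were at least 2-fold higher and 7 at least 2-fold lower. The 12 members past 2-fold lower thus included some that reached the limit through CONV-R alone.

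**Figure D2:**
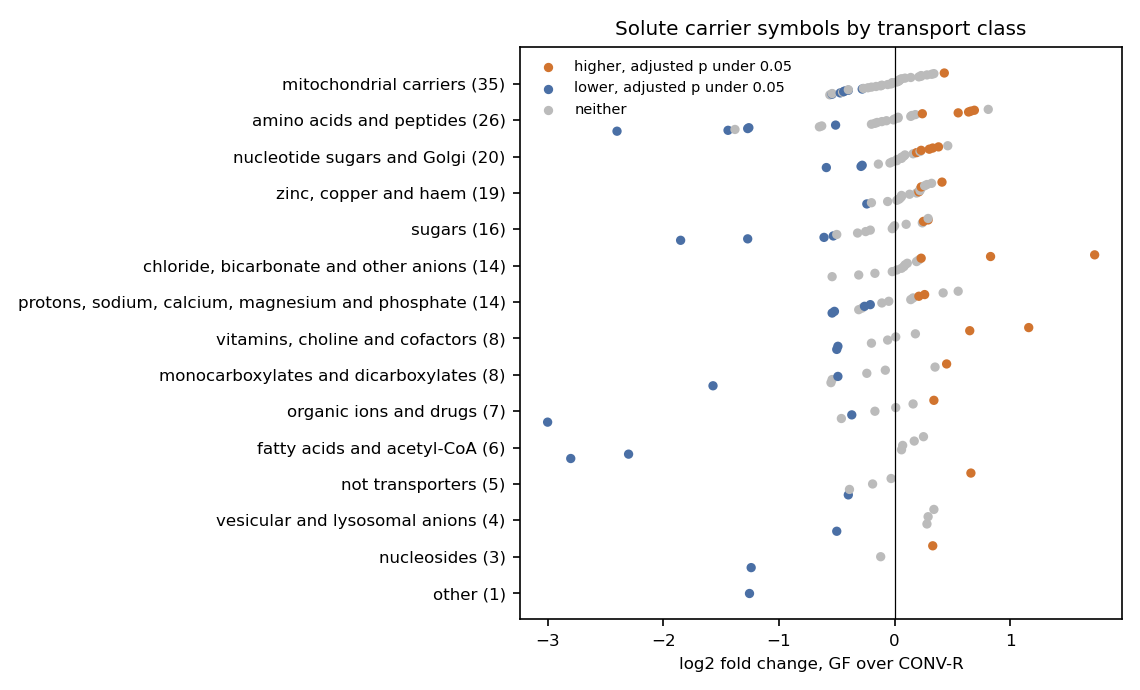
Log2 fold change of GF over CONV-R (horizontal axis) for each of the 186 members, 1 point per member, arranged by transport class with the number of members in parentheses. Orange points were higher and blue points lower at an adjusted p under 0.05, and 9 of the 12 decreases beyond 1 lie among carriers of amino acids, sugars, organic ions and fatty acids.

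RNA of other cell types differed between the groups as well. The sum of 16 hepatocyte markers was 4630 ± 3086 CPM of the unscaled total in CONV-R (1538 to 9483, n = 7) and 1174 ± 198 in GF (902 to 1430, n = 6), with no overlap (exact two-sided permutation test over 1716 splits, adjusted over 8 lists, p = 0.00622). The 10 neutrophil and monocyte markers summed to 235 to 2437 CPM over the CONV-R libraries and to 87.6 to 185 over the GF libraries (exact permutation test, adjusted p = 0.00466). B and plasma cell markers summed to 1367 CPM in CONV-R 1, to at most 62.9 in the other CONV-R libraries and to at most 30.6 in GF. Kupffer cell markers were at 4908 ± 2265 and 2964 ± 485 CPM (exact permutation test, adjusted p = 0.11), and cholangiocyte markers ran the other way, 121 ± 82.4 against 264 ± 90.4 (adjusted p = 0.0261). The sum for erythroid cells was 29.9 ± 12 against 14.9 ± 6.12 CPM (adjusted p = 0.0245), with the haemoglobin genes Hba-a1, Hba-a2, Hbb-bs and Hbb-bt listed at 0 in every library. No other marker in the table was at 0. In bulk RNA, fewer cells of a type and less RNA per cell cannot be told apart.

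With the summed hepatocyte level of each library as a covariate, 5 members were higher and 5 lower, against 278 and 241 of the 13915 tested genes. Under the neutrophil and monocyte level 2 were higher and 3 lower, against 221 and 239, and under the Kupffer cell level 13 and 13, against 730 and 608. The hepatocyte sums of the groups did not overlap, and neither did the neutrophil and monocyte sums. Fits with either covariate therefore cannot separate the group from RNA of those cells, and a lost or kept call does not decide between them. Of the 27 members higher in GF, 25 kept their sign and 1 its call under the hepatocyte covariate. Of the 35 lower members, 27 kept their sign and 4 their call. The median log2 fold change moved from 0.34 to 0.11 for the higher members and from -0.52 to -0.25 for the lower. Slc9a3r2 (higher) and Slc20a1 and Slc37a1 (lower) passed the threshold under each covariate, in each CONV-R code number alone and without any 1 library.

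Nucleobase and nucleoside carriers moved in opposite directions. Slc43a3 (chr2:84936545-84958509), placed here in the amino acid class by its family number, ranged from 737 through a median of 1130 to 1401 CPM in CONV-R, and from 1538 through 1768 to 1831 in GF. All GF libraries lay above all CONV-R libraries. The mean rose from 1102 ± 225 to 1740 ± 105 CPM (log2 fold change 0.66 ± 0.13 SE, adjusted p = 0.00356). Slc29a1 (chr17:45585200-45599618) ran from 717 through 820 to 919 CPM in CONV-R and from 928 through 1043 to 1087 in GF, a narrow separation without overlap (0.33 ± 0.08, adjusted p = 0.0088). Slc28a2, the sodium-coupled purine nucleoside carrier, was at 12.9 to 91.7 CPM in CONV-R (median 18.9) and 11.2 to 17 in GF (median 12.3), with overlapping groups. Its decrease of -1.24 ± 0.41 (adjusted p = 0.0441) was -0.66 without CONV-R 1, the library with the highest B cell markers, and the call was kept in 5 of the 13 fits that each left out 1 library. The lysosomal carrier Slc29a3 did not pass (-0.12 ± 0.08, adjusted p = 0.299).

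The scaffold proteins that bind the sodium-proton exchangers also went opposite ways. Slc9a3r2 was at 254 to 338 CPM in CONV-R (median 287) and 423 to 492 in GF (median 461). No library of one group reached the other, and the increase was 0.66 ± 0.08 (adjusted p = 1.37e-04), the smallest adjusted p among members that rose. Slc9a3r1, its paralogue, fell from 87.9 ± 14.3 to 66.8 ± 5.35 CPM (-0.40 ± 0.10, adjusted p = 0.0139), with overlapping groups. The promoter window shown for Slc9a3r2 is the one with 4 GC boxes.

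Among the 5 members named for family 4, 3 were called higher (60%, against 11.4% of all tested genes) and 0 lower. The 5 include the adaptor Slc4a1ap, which is not a carrier. Slc4a7 ran from 1.2 to 0.828 CPM per kilobase of exon and did not pass. Slc4a4, the electrogenic sodium-bicarbonate cotransporter, had the largest increase of all members, from 11.6 ± 8.82 CPM to 38.3 ± 7.89 (1.73 ± 0.44, adjusted p = 0.0134). CONV-R libraries spread from 2.63 through 8.49 to 27.4 CPM, and all GF libraries lay above them, from 28.5 through 35.8 to 49. Its spread in CONV-R was wide beside that of Slc4a2, the chloride-bicarbonate exchanger, which ran from 66.2 through 69.9 to 73.4 CPM in CONV-R and from 79.2 through 81.9 to 84.7 in GF. Slc4a2 rose by a small amount, 0.23 ± 0.04 (adjusted p = 0.00195), without overlap between the groups. Slc4a2 shares 13.7% of its exon length with Fastk on the opposite strand, so its value is uncertain. The sodium-driven exchanger Slc4a8 rose from 4.76 to 8.4 CPM (0.83 ± 0.18, adjusted p = 0.00639) with overlapping libraries. It reached the member limit through GF alone. Cholangiocytes, whose marker sum was also higher in GF, express bicarbonate carriers, and the part of these cells in the increase of Slc4a4 was not tested. None of the 6 cation-chloride cotransporters of family 12 passed in either direction, and neither did the 4 members of family 26.

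Phosphate and proton carriers held the member with the smallest adjusted p among those that fell. Slc20a1 (chr2:129198773-129211615), a sodium-phosphate cotransporter, was at 68.2 to 79.6 CPM in CONV-R (median 77.2) and 42.4 to 59.2 in GF (median 50.9). The groups did not overlap, and the mean fell from 75.2 ± 3.9 to 51.5 ± 6.81 CPM (-0.54 ± 0.08, adjusted p = 5.68e-04). Its paralogue Slc20a2 fell by 0.21 on the log2 scale, from 15.9 ± 1.09 to 13.7 ± 0.685 CPM (adjusted p = 0.0332). That call was kept in 8 of 13 fits that left out 1 library, and lost with no filter and with either CONV-R code number alone. Of the sodium-proton exchangers, Slc9a8, which acts in the Golgi, fell from 46.9 to 39.1 CPM (-0.26 ± 0.07, adjusted p = 0.0149), and Slc9a5 from 18.6 to 13 (-0.52 ± 0.16, adjusted p = 0.0297, kept in 8 of the 13). In all, 2 of the 14 members of this class were higher and 4 lower.

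**Figure D3:**
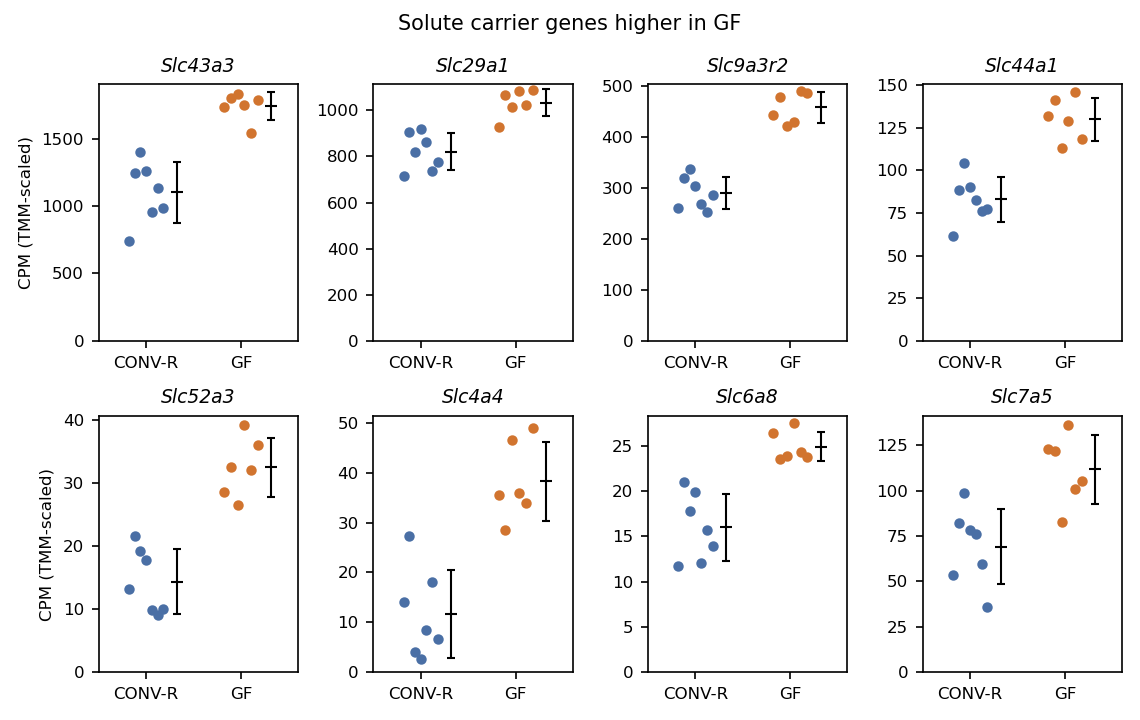
TMM-scaled CPM (vertical axis, from 0) of 8 members higher in GF, with 1 point per library for CONV-R (blue, n = 7) and GF (orange, n = 6) and the mean ± SD beside the points. The groups overlap for Slc7a5, and for the other 7 members every GF library lies above every CONV-R library.

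The riboflavin carriers of family 52 included an increase and a decrease. Slc52a3, a riboflavin transporter, ranged from 9.14 through 13.2 to 21.6 CPM in CONV-R and from 26.5 through 32.4 to 39.2 in GF. It rose 2.23-fold without overlap (1.16 ± 0.20, adjusted p = 0.0019). Slc52a2, the other riboflavin transporter among the members, fell from 7.32 ± 1.02 to 5.18 ± 0.53 CPM (-0.50 ± 0.12, adjusted p = 0.00956). Slc44a1, a choline carrier of the plasma membrane and mitochondria, was at 61.7 to 104 CPM in CONV-R (median 82.7) and 113 to 146 in GF (median 130), and rose by 0.65 ± 0.10 (adjusted p = 0.00114). Its family member Slc44a2 was at 316 ± 23 and 317 ± 14.6 CPM and did not pass (0.01 ± 0.06, adjusted p = 0.944). Slc46a3, a lysosomal carrier, was lower (-0.49 ± 0.16, adjusted p = 0.035, kept in 7 of 13 fits that left out 1 library), and the folate carrier Slc46a1, the thiamine carrier Slc19a2 and the ascorbate carrier Slc23a2 did not pass.

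In the class of amino acid and peptide carriers, 5 of 26 members were higher and 5 lower, with a median log2 fold change of -0.04. Of the 5 higher members, the nucleobase carrier Slc43a3 and the creatine carrier Slc6a8 stand in the class by family number alone. Slc7a5, the light chain of the exchanger for large neutral amino acids, ran from 36 through 76.2 to 98.6 CPM in CONV-R and from 82.9 through 113 to 136 in GF. The groups overlapped, the increase was 0.69 ± 0.19 (adjusted p = 0.0213), and the call was lost without GF 9 and without GF 11. Slc3a2, the heavy chain that brings Slc7a5 and Slc7a7 to the plasma membrane, was at 240 ± 43.3 and 267 ± 14.8 CPM and did not pass (0.15 ± 0.11, adjusted p = 0.323). Slc7a7, which exports cationic amino acids in exchange for neutral ones, rose without overlap from 26 to 30.6 CPM per kilobase of exon (0.24 ± 0.06, adjusted p = 0.0155), a call lost with library totals. Slc6a8 rose from 11.7 through 15.7 to 21 CPM in CONV-R to 23.6 through 24.1 to 27.5 in GF (0.64 ± 0.13, adjusted p = 0.00546), again without overlap. Slc36a4, a lysosomal and plasma membrane carrier of proline and tryptophan, was between 15.1 and 40 CPM over the CONV-R libraries and between 38.7 and 47.4 over the GF libraries (0.55 ± 0.17, adjusted p = 0.0294), and its call was kept in 5 of 13 fits that left out 1 library.

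System A and N carriers of glutamine and other neutral amino acids, family 38, had 3 members lower and none higher among 8. Slc38a3, which moves glutamine with sodium against protons and is abundant in hepatocytes, was at 13.8 to 58.5 CPM in CONV-R (median 25.5) and 3.93 to 8.38 in GF (median 6.46). The groups did not overlap (-2.40 ± 0.36, adjusted p = 7.88e-04). Slc38a4, another hepatocyte carrier, fell from 28.6 ± 17.2 to 12 ± 2.66 CPM (-1.26 ± 0.34, adjusted p = 0.0193). With the hepatocyte sum as covariate its log2 fold change was 0.42 and did not pass. Slc38a1 averaged 28.6 in CONV-R and 11.9 CPM in GF (-1.27 ± 0.41, adjusted p = 0.0374). CONV-R 1, the library with the highest B and plasma cell markers, was at 84.7 CPM. Without it the log2 fold change was -0.70, and the call was kept in 6 of 13 fits that left out 1 library. The part of B cells in the values of Slc38a1 and Slc28a2 was not tested. Slc38a2, which responds to amino acid supply, was at 254 ± 37.3 and 259 ± 9.38 CPM and did not pass (0.03 ± 0.09, adjusted p = 0.827). The lysosomal amino acid sensor Slc38a9, at 33.6 and 33.3 CPM, did not pass either (adjusted p = 0.961). The glutamate carrier Slc1a2 fell from 10.8 to 3.97 CPM (-1.44 ± 0.35, adjusted p = 0.0117), and the cationic amino acid carrier Slc7a2 from 10 to 7.05 (-0.51 ± 0.15, adjusted p = 0.0268, kept in 10 of the 13).

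Sugar carriers were lower in 4 of 16 members and higher in 2. Slc37a1 (chr17:31295135-31350709), which exchanges glucose 6-phosphate for phosphate in the endoplasmic reticulum, was at 20.5 to 29.8 CPM in CONV-R (median 28.5) and 16.8 to 21.3 in GF (median 17.6). GF 13 and CONV-R 7 overlapped, and the decrease was -0.53 ± 0.09 (adjusted p = 0.00212). The facilitative glucose transporter Slc2a3 ran from 15.6 through 18.2 to 55.6 CPM in CONV-R and from 9.48 through 10.5 to 14.3 in GF (-1.27 ± 0.30, adjusted p = 0.00968), without overlap. Slc2a6, a glucose transporter family member of lysosomes, was between 3.26 and 15.8 CPM over the CONV-R libraries and between 1.9 and 3.17 over the GF libraries (-1.85 ± 0.37, adjusted p = 0.00393). The highest values of Slc2a3 and Slc2a6 were in CONV-R 6 and 7, the libraries with the highest neutrophil and monocyte markers. With that marker sum as covariate the log2 fold changes were -0.16 for Slc2a3 and -0.72 for Slc2a6, neither past the threshold. Such a fit cannot separate that sum from the group, and the part of these cells in the decrease was not tested. Slc2a1, the widespread endothelial glucose transporter, had 12 ± 4.43 and 8.43 ± 1.3 CPM and did not pass (-0.50 ± 0.22, adjusted p = 0.112). Slc37a3 was higher by 0.25, a call lost with library totals. Slc2a8 passed at 0.29, but was kept in 3 of 13 fits that left out 1 library and lost with library totals, no filter and the stricter filter.

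Of the 8 members of the monocarboxylate carrier family 16, 2 were lower. The lactate exporter Slc16a3 fell from 14.9 to 4.97 CPM (-1.57 ± 0.43, adjusted p = 0.0202). Its highest value, 38 CPM, was in CONV-R 7. The CONV-R median was 8.65, and the highest GF value was 7.27. With the neutrophil and monocyte level as covariate its sign turned, to 0.44. Slc16a1, a lactate and pyruvate carrier, fell from 15.7 ± 3.3 to 11.2 ± 1.78 CPM (-0.49 ± 0.14, adjusted p = 0.027), a call kept in 10 of 13 fits that left out 1 library.

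**Figure D4:**
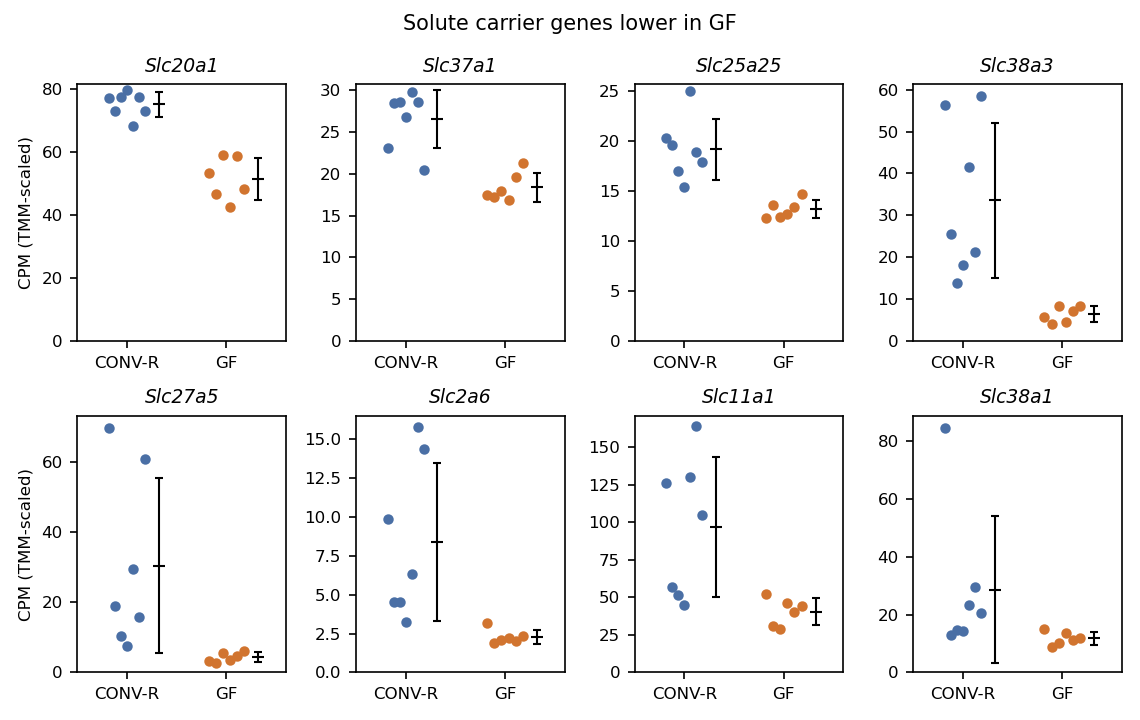
TMM-scaled CPM (vertical axis, from 0) of 8 members lower in GF, with 1 point per library for CONV-R (blue, n = 7) and GF (orange, n = 6) and the mean ± SD beside the points. From lowest to highest CONV-R library, Slc20a1 spans 1.17-fold and Slc37a1 1.46-fold. Slc38a3, Slc27a5 and Slc38a1 span 4.25-fold, 9.22-fold and 6.51-fold there, the last through 1 library at 84.7.

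Of the mitochondrial carriers of family 25, the largest class, 28 of 35 passed in neither direction, 1 was higher and 6 were lower, with a median log2 fold change of -0.03. The ADP/ATP exchangers Slc25a5 and Slc25a4 and the phosphate carrier Slc25a3 differed by 0.03, 0.14 and 0.04, none past the threshold. Slc25a30, a carrier of the uncoupling protein branch, was the member that rose, from 20.2 through 26.3 to 27.3 CPM in CONV-R to 32.1 through 33.8 to 39.2 in GF, without overlap (0.43 ± 0.07, adjusted p = 0.0017). Slc25a25, a calcium-regulated carrier of ATP-magnesium and phosphate, fell without overlap, from 15.4 through 18.9 to 25 CPM in CONV-R to 12.3 through 13.1 to 14.7 in GF (-0.54 ± 0.10, adjusted p = 0.00296). Of the iron importers, Slc25a28 fell from 52.7 ± 4.87 to 40 ± 3.97 CPM (-0.40 ± 0.08, adjusted p = 0.00395), and Slc25a37, at 336 ± 86.5 and 332 ± 75.2, did not pass (-0.02 ± 0.18, adjusted p = 0.959). The citrate carrier Slc25a1 (-0.47), the dicarboxylate carrier Slc25a10 (-0.43), the glutamate carrier Slc25a22 (-0.28) and Slc25a35 (-0.44) were also lower. Slc25a35 shares 31.3% of its exon length with Rangrf on the opposite strand, so its value is uncertain.

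Of 19 carriers of zinc, copper and haem, 3 were higher and 1 lower, none by 2-fold, with a median log2 fold change of 0.19. The copper carrier Slc31a2 of endosomes and lysosomes rose from 103 through 134 to 151 CPM in CONV-R to 165 through 171 to 192 in GF (0.41 ± 0.09, adjusted p = 0.0059), without overlap. Slc31a1 of the plasma membrane passed at 92.9 ± 10 and 109 ± 7.24 CPM (0.23 ± 0.07, adjusted p = 0.0393), but its call was kept in 1 of 13 fits that left out 1 library and lost with library totals, no filter and the stricter filter. The zinc carrier Slc39a9 was higher (0.21, kept in 4 of 13 such fits and lost with library totals) and Slc39a13 lower (-0.24, kept in 11), and the other 8 members of family 39 did not pass. All 6 zinc exporters of family 30 lay between -0.06 and 0.28, and none passed. The haem carrier Slc48a1 did not pass (-0.20 ± 0.09, adjusted p = 0.108).

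Nucleotide sugar carriers of the Golgi and endoplasmic reticulum, family 35, were higher in 5 of 20 members and lower in 3. Slc35a2, which brings UDP-galactose into the Golgi, rose from 29 ± 2.49 to 33.9 ± 1.9 CPM (0.23 ± 0.06, adjusted p = 0.0231), and Slc35b4 from 49.2 ± 2.97 to 56 ± 2.02 (0.19 ± 0.05, adjusted p = 0.0164), both without overlap. Both calls were lost with library totals, and they were kept in 9 and 12 of 13 fits that left out 1 library. Slc35c2 showed the largest decrease of the family, from 26.6 ± 6.34 to 17.6 ± 1.28 CPM (-0.59 ± 0.13, adjusted p = 0.00775). Among carriers of vesicles and lysosomes, the nucleotide carrier Slc17a9 fell without overlap, from 20.9 ± 3.56 to 14.7 ± 1.08 CPM (-0.50 ± 0.10, adjusted p = 0.00537), and the sialic acid carrier Slc17a5 did not pass (0.28 ± 0.13, adjusted p = 0.144).

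Steep decreases were seen among carriers known from hepatocytes. Slc27a5, which joins coenzyme A to bile acids, ran from 7.56 through 18.8 to 69.7 CPM in CONV-R and from 2.78 through 4.13 to 6.16 in GF, without overlap (-2.80 ± 0.51, adjusted p = 0.00268). Slc27a2, an acyl-CoA synthetase for very long chain fatty acids, was between 6.18 and 75.6 CPM over the CONV-R libraries and between 4.49 and 8.47 over the GF libraries (-2.30 ± 0.54, adjusted p = 0.00933). Both were highest in CONV-R 1 and 7, the libraries with the highest hepatocyte marker sums, and with that sum as covariate the log2 fold changes were -0.28 for Slc27a5 and 0.49 for Slc27a2. Slc38a3, which also peaked in these libraries, was at -0.86 under that covariate and kept its call. As the hepatocyte sum did not overlap between the groups, these fits cannot separate it from the group. Of 15 carriers listed as hepatocyte-rich, 11 were members, among them Slc27a5, which reached the limit through CONV-R alone. The 13 that were tested gave 8 lower (61.5%, against 12.7% of all tested genes) and 0 higher, with a median of -1.26. Not all followed: the glucose transporter Slc2a2, also a hepatocyte carrier, was at 7.78 ± 3.99 and 9.23 ± 2.05 CPM (0.24 ± 0.30, adjusted p = 0.584). The carnitine carrier Slc22a5 did not pass (0.16 ± 0.09, adjusted p = 0.201).

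Carriers known from myeloid cells were lower in 5 of 8 (62.5%, against 12.7% of all tested genes) and higher in 0, with a median of -0.94. Slc11a1, which moves iron and manganese out of the phagosome of macrophages and neutrophils, was at 44.7 to 164 CPM in CONV-R (median 105) and 28.8 to 52.1 in GF (median 42). CONV-R and GF overlapped (-1.26 ± 0.30, adjusted p = 0.0104). The other 4 were Slc2a6, Slc16a3, Slc28a2 and Slc37a2, the last kept in 4 of 13 fits that left out 1 library. Of these, Slc2a6 and Slc16a3 averaged under 5 CPM in GF and reached the member limit through CONV-R. Slc15a3, a phagosomal peptide carrier, did not pass (-0.20 ± 0.22, adjusted p = 0.512), and 28.1% of its exon length lies opposite Tmem132a. The neutrophil and monocyte marker sum differed by -2.38 on the log2 scale and the Kupffer cell sum, which did not pass, by -0.60. Slc11a1 was at -0.56 with the neutrophil and monocyte sum as covariate and did not pass, and with the Kupffer cell sum it kept its call. The part of these cells was not tested. Of 4 tested carriers listed as erythroid-rich, none passed.

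**Figure D5:**
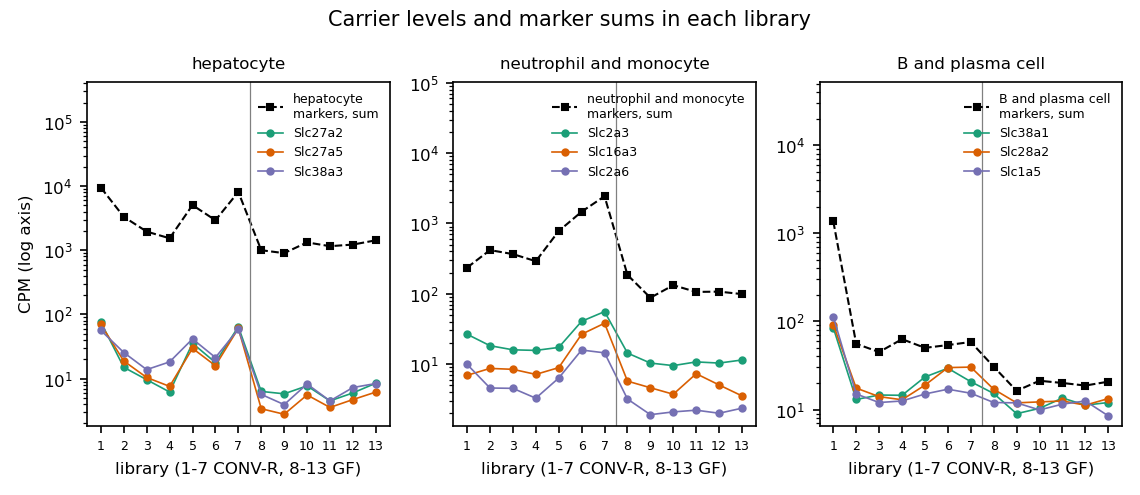
CPM on a log axis in each of the 13 libraries (1 to 7 CONV-R, 8 to 13 GF, parted by the grey line) of carriers (coloured) and of the summed markers of a cell type (black dashes). Left, Slc27a2, Slc27a5 and Slc38a3 peak in CONV-R 1 and 7 as the hepatocyte sum does. Middle, Slc2a3, Slc16a3 and Slc2a6 peak in CONV-R 6 and 7, and right, Slc38a1, Slc28a2 and Slc1a5 peak in CONV-R 1, where B and plasma cell markers reach 1367.

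Genes that work with these carriers gave a mixed picture. Of 30 solute carriers that go by other symbols, 20 were tested, 2 were higher and 5 lower. Slco2b1, an organic anion transporter of endothelium, rose from 47.5 ± 9.65 to 109 ± 20.5 CPM (1.19 ± 0.14, adjusted p = 1.64e-04), without overlap, and the mitochondrial carrier Ucp2 rose by 0.58 ± 0.13 (adjusted p = 0.00671). The serine carrier Sfxn1 fell without overlap, from 43.9 ± 3.03 to 32.5 ± 1.79 CPM (-0.43 ± 0.06, adjusted p = 3.74e-04), and the hepatocyte carrier Slco1b2 fell from 46.7 ± 44.7 to 7.85 ± 2.62 (-2.57 ± 0.59, adjusted p = 0.00901). Of 12 partners and regulators, Bsg, the chaperone of lactate carriers (0.28 ± 0.09, adjusted p = 0.0439), the kinase Wnk1 (0.17) and Cnnm2 (0.66) were higher. Emb (-0.93) and Arrdc4, an arrestin that promotes removal of glucose transporters from the membrane (-0.76 ± 0.09, adjusted p = 1.44e-04), were lower, and the kinase Sgk1 did not pass (0.01 ± 0.14, adjusted p = 0.978).

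Since Slc7a5 and Slc3a2 are targets of the amino acid response factor ATF4, 13 genes of that response that are not carriers were read beside them. Ddit4 rose from 37.3 ± 10.7 to 154 ± 42.9 CPM (2.04 ± 0.22, adjusted p = 7.76e-05), Trib3 by 0.78 and Sesn2 by 0.63. Atf4 itself fell by 0.24 on the log2 scale (adjusted p = 0.0306) and Chac1 by 0.57, and 8 genes, among them Asns (0.45 ± 0.27, adjusted p = 0.234) and Ddit3 (-0.04), did not pass. The list as a whole had a median of -0.11, beside -0.01 for all tested genes.

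Members varied more among CONV-R libraries than among GF libraries. The ratio of the highest to the lowest library had a median of 1.62 over the members in CONV-R and 1.22 in GF, and passed 2-fold for 61 members in CONV-R and 10 in GF. CONV-R 1 was the highest CONV-R library for 47 of the 186 members and the lowest for 54. These ratios come from 7 libraries in one group and 6 in the other, with shallower libraries in CONV-R, and the effect of depth on them was not tested.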

How the data were processed

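RNA from liver endothelial cells was read from stranded mRNA libraries, per the labels' protocols. Raw counts for each gene symbol and library stand in a table that the authors deposited. STAR 2.7.5a, featureCounts 2.0.1, DESeq2 1.42.1, FastQC 0.11.9 and build mm10 are named, per the submitters' processing notes. How strand and multimapped reads were handled, and with which annotation, is not given in the sources used here, so overlapping and near-identical genes are uncertain.

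The counts were fitted with edgeR 4.0.16 in R 4.3.3: filterByExpr (minimum count 10, minimum total 15), TMM scaling, robust quasi-likelihood models of group, and Benjamini-Hochberg adjustment over all 13915 tested genes at 0.05. Standard errors were taken as the size of the log2 fold change over the root of the F statistic. CPM in the text are TMM-scaled except for the selection of members and the marker sums. Marker sums were compared as log2(CPM + 1). Exon lengths came from GENCODE M21 and coordinates and promoters from RefSeq, both GRCm38. Classes follow the family number. The fit was tested on simulated data.

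Members, lists and tests were chosen with earlier results of these data known. Named members were the 10 highest and 10 lowest log2 fold changes past the threshold, the 5 smallest p in each direction, the most abundant by CPM of each class, all of classes with at most 3 members, and the 2 neighbours on each side of the limit. This rule named 39 members, 37 of which are reported here. Others described here, among them Slc38a4, Slc25a1 and Slc35a2, were chosen after their values were seen. Alternatives were DESeq2 1.42.0, its size factors, library totals, no filter, a stricter filter (1 CPM in 6 libraries), an adjusted p under 0.01, CONV-R code numbers 10 and 9 separately, marker sums as covariates, and leaving out libraries. Genes and sequences not in these tables were not analysed here.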

Additional observations from a re-analysis of the deposited data

Results flagged for a closer look

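Among 74 groups of libraries (37 named members in each of CONV-R and GF), 10 held a library that stood far from the others, by Dixon's gap over range (limits 0.568 for 7 libraries and 0.625 for 6). For independent groups with normally distributed values, chance alone does so in about 1 of 20. Here all members share the same 13 libraries, and many were named for their differences, so the 10 cannot be read against that rate. CONV-R 1 was the far library for 6 members. In CPM, it was high for Slc28a2 (91.7, next 30.3), Slc38a1 (84.7, next 29.4), Slc29a3 (44.7, next 35.6) and Slc7a6 (14.8, next 5.88), and low for Slc25a30 (20.2, next 26) and Slc39a8 (183, next 288). In GF, library 8 was high for Slc28a2 (17, next 13.3) and for Slc2a6 (3.17, next 2.35), library 11 was high for Slc29a3 (34.8, next 31.9), and library 12 was low for Slc43a3 (1538, next 1737). CONV-R 1 also had the highest hepatocyte, B cell and T cell marker sums and the lowest endothelial marker sum of the CONV-R libraries.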

How the results depend on the processing

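No paired analysis was possible because replicate numbers run from 1 to 13 over both groups and none is shared. Against 27 members higher in GF and 35 lower, DESeq2 gave 31 and 40, with 13.6% and 15.9% of all tested genes. DESeq2's size factors gave 27 and 35, with 10.8% and 13.1% of all tested genes. No filter gave 24 and 31, with 7.51% and 8.03%, and the stricter filter 25 and 35, with 10.9% and 13.8%. Members higher in GF numbered 16 with library totals, 10 with CONV-R code number 10 alone, 5 with the hepatocyte covariate, 2 with the neutrophil and monocyte covariate, 13 with the Kupffer cell covariate, 17 without CONV-R 6 and 7 together and 11 at 0.01. Members lower in GF numbered 22 with CONV-R code number 10 alone and 14 at 0.01. With the covariates the lower members numbered 5 for hepatocytes (1.73% of all tested genes), 3 for neutrophils and monocytes (1.72%) and 13 for Kupffer cells (4.37%). The counts with CONV-R code number 9 alone were 40 and 44, where 16.2% and 17.9% of all tested genes were called, and with number 10 alone 6.89% and 7.05% of all genes were. Leaving out 1 library gave 16 to 35 higher, the lowest without GF 9, and 25 to 37 lower. Over all tested genes the share higher ran from 7.15% without GF 9 to 12.8% without CONV-R 3. The share lower ran from 8.53% to 14.2% in the same fits. Of the calls, 15 of 27 and 24 of 35 were kept in all 13 of these fits. The members whose 6 GF libraries all lie above every CONV-R library numbered 43, and below 35, with CONV-R code number 9 alone, and 17 to 21 and 10 to 14 when 1 library was left out. With fewer libraries a lack of overlap is easier to reach for any gene. The share of all genes without overlap is not given for these settings, so the counts without overlap say nothing particular about the members. Leaving out CONV-R 1 and 7 together (25 higher, 36 lower) or CONV-R 6 and 7 was chosen after seeing the data. The cause of these shifts was not tested.

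Signs turned for some log2 fold changes. With the hepatocyte covariate the log2 fold change of Slc1a2 was 0.09, of Slc27a2 0.49, of Slc28a2 0.43, of Slc38a1 0.19, of Slc36a4 -0.10, of Slc7a6 0.14, of Slc17a5 -0.23, of Slc22a5 -0.05, of Slc39a8 -0.18, of Slc44a2 -0.01 and of Slc9a9 -0.25. Called members outside the naming rule also turned under it: Slc38a4 was at 0.42, Slc37a2 at 0.12, Slc25a10 at 0.06 and Slc2a8 at -0.02. Slc9a5 was at 0.07 with the neutrophil and monocyte covariate. With the neutrophil and monocyte covariate that of Slc16a3 was 0.44, of Slc25a37 0.22, of Slc33a1 -0.02, of Slc44a2 -0.16 and of Slc50a1 -0.05, and with the Kupffer cell covariate that of Slc33a1 was -0.01 and of Slc44a2 -0.00. With library totals Slc33a1 was at -0.04, Slc44a2 at -0.09 and Slc50a1 at -0.09. DESeq2 gave -0.00 for Slc44a2 and Slc50a1, its size factors -0.00 for Slc50a1, and the stricter filter -0.01 for both. With CONV-R code number 10 alone Slc33a1 was at -0.01 and Slc44a2 at -0.06, and with code number 9 alone Slc50a1 was at -0.02. Slc25a37 was at 0.04 without CONV-R 1 and 7 and 0.09 without CONV-R 6 and 7, and there Slc44a2 was at -0.05 and Slc50a1 at -0.02. When 1 library was left out, Slc25a37 ran from -0.14 to 0.07, Slc33a1 from -0.01 to 0.10, Slc44a2 from -0.02 to 0.02 and Slc50a1 from -0.03 to 0.03. The stellate cell marker sum, 0.38 higher in GF on the log2 scale, was -0.16 without GF 11, and ran to 0.60 when other libraries were left out. The Kupffer cell marker sum passed the threshold (exact permutation test, adjusted p = 0.0375) without CONV-R 4. Depth limits the rarer members most in the shallowest library, at 7590320 counts.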

Other observations

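The peptide transporter Slc15a2, chosen after its values were seen, varied most between libraries. In CONV-R 1 to 7 it was at 85.3, 12.5, 57.9, 0.209, 20.4, 0.784 and 17.4 CPM, and in GF 8 to 13 at 108, 47.3, 37.1, 23.8, 65.3 and 12.6 CPM. The highest CONV-R library was 408 times the lowest, against 8.59 times in GF. Its difference between the groups did not pass (edgeR, 0.81 ± 0.87, adjusted p = 0.52).

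The glutamine carrier Slc1a5, also chosen after its values were seen, was at 113 CPM in CONV-R 1 and at 12 to 17 in the other CONV-R libraries. Over all libraries its log2 fold change was -1.38 (edgeR, adjusted p = 0.0738), and without CONV-R 1 it was -0.40 and passed (adjusted p = 0.0218). Over all alternatives its adjusted p ran from 0.009 to 0.648.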
